A study of Mus musculus with 6 samples.

Results

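The 10 genes described here belong to the metal and oxidative stress response: the metallothionein genes Mt1 and Mt2, the zinc-sensing factor Mtf1, the zinc exporter Slc30a1, the heme oxygenase Hmox1, and Nfe2l2 (NRF2) with its textbook targets Gclm, Nqo1, Txnrd1 and Srxn1. They were taken by gene symbol, and each of the 10, out of 23091 symbols in all, matched 1 entry in every file. Mt1, Mt2 and Hmox1 were chosen on measured values, because they stood higher with interleukin 1β (IL-1β) at day 3 and in vivo. Their IL-1β differences at these stages are therefore a description of why they were chosen and support nothing. The other 7 genes are their regulators and partners, and were chosen with earlier results of these data known.

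The study examined RNA of mouse Th9 cells, CD4 helper T cells known for making interleukin 9, cultured with or without IL-1β. Their naive precursors were taken from spleen and nodes of C57/Bl6j wild-type mice, 7 weeks old. All 6 groups were kept in RPMI medium with serum, on plates coated with CD3 and CD28 antibodies, and received 20 ng/ml IL-4, 2 ng/ml TGFb and an antibody that blocks IFNgamma. The groups were Th9 and Th9 with 10 ng/ml IL-1β after 1 h, the same after 3 days, and the same in vivo. For the in vivo groups, CD45.2 cells were put into CD45.1 mice after the 3 days of culture, and 1 week later they were recovered by sorting. The sources used here do not give the recovered tissue, the number of recipient mice or the purity of the sort. RNA came from 300000 cells. The 1 h libraries were made from rRNA-depleted RNA and the other 4 from poly(A)-selected RNA, so time and RNA selection cannot be told apart between 1 h and the later stages.

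Each group was 1 library, so none of the differences below has a replicate check, and no p-value is given. The only measure of error is the interval that the authors deposited with each FPKM, at a level not given in the sources used here. FPKM is the number of fragments scaled to transcript length and library size. Read depth is unknown. At day 3 and in vivo, the median half-width of these intervals was 23.5% to 27.0% of the FPKM, over entries at 5 FPKM or more. At 1 h it was 69.8% without and 42.0% with IL-1β. Genes below 5 FPKM on both sides of a comparison were not compared. A compared gene counted as different, higher or lower, when (FPKM + 1) differed by 2-fold or more and the deposited intervals lay apart. In bulk RNA, fewer cells of a type and less RNA per cell cannot be told apart.

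Metallothioneins are small cysteine-rich proteins that bind zinc and copper, buffer free zinc and react with oxidants. Free zinc activates MTF1, which binds metal response elements in front of the metallothionein genes and of Slc30a1, whose product carries zinc out of the cytosol. Heme oxygenase 1 breaks heme down to biliverdin, iron and carbon monoxide. NRF2 is held back by KEAP1 and, when released by oxidants, binds antioxidant response elements with small MAF proteins, while BACH1 occupies such elements at the heme oxygenase gene until heme displaces it.

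Because Mt1 and Mt2 had the largest IL-1β ratios of the 10 genes at day 3 and in vivo, for which they were chosen, their start sites are shown. The windows are from RefSeq on GRCm38.p6, both on the plus strand, and run from 250 bases before to 30 bases after the annotated start. Mt1 lies at chr8:94178839-94179118 and Mt2 at chr8:94172368-94172647. Capitals mark the searched letters on either strand: the metal response element cores TGCACNC and TGCGCNC, and the antioxidant response element in its full form TGACTCAGC.
Mt1: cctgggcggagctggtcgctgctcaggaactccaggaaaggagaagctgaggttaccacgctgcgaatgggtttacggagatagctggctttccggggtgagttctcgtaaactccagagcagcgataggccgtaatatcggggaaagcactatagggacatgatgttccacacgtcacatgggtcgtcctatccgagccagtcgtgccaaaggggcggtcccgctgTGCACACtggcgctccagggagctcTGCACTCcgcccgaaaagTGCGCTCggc
Mt2: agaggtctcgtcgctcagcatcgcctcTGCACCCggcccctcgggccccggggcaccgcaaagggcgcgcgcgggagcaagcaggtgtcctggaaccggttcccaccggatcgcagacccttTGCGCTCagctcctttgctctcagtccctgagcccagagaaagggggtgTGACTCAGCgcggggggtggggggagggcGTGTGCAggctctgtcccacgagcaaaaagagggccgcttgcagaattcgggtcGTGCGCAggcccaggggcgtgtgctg
In the Mt1 window there were 3 matches to the metal response element, at -23 to -17, 3 to 9 and 21 to 27 from the start, all on the plus strand. In the Mt2 window there were 4, at -223 to -217 and -128 to -122 on the plus strand and at -50 to -44 and 5 to 11 on the minus strand. The full antioxidant response element stood at -79 to -71 of Mt2 and is also a match to its core TGACNNNGC, and neither form was in the Mt1 window.

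Among all 32851 RefSeq windows of 300 bases (250 before and 50 after the start), 12.6% held TGCACNC, 15.4% held TGCGCNC and 25.7% held at least 1 of them. At least 4 matches, as in Mt2, were in 0.517% of windows. TGACNNNGC was in 12.4% and TGACTCAGC in 0.454%, or 149 windows. RefSeq windows were matched for 9 of the 10 genes. Over the whole 300 bases, Slc30a1 had 2 metal response element matches and Gclm had 3. Srxn1 had 1, and Mtf1, Nfe2l2, Nqo1 and the 3 windows of Txnrd1 had 0. A core antioxidant response element was in the windows of Slc30a1, Gclm, Nfe2l2 and Srxn1 and in 1 of the 3 windows of Txnrd1, and not in those of Mtf1 and Nqo1. The windows follow annotated starts, which were not checked against these data, and bases outside the windows were not searched. Differences in matches between genes, such as Mt1 and Mt2, can thus depend on where the windows lie. These matches describe letters and do not show binding.

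Mt1 was the gene of the 10 with the widest range of levels. Its deposited entry lies on chromosome 8, from 96702989 to 96704227 (mm9, as all gene positions below). At day 3 it stood at 8.14 FPKM (interval 2.04 to 13.2) without IL-1β and 49.7 (22.4 to 59.3) with it. In vivo it stood at 40.4 (14.1 to 44.9) without and 118 (49.9 to 97.4) with IL-1β. At 1 h it was listed at 0 without and at 2.33 (0 to 5.09) with IL-1β. The intervals of the Mt1 libraries with and without IL-1β lay apart at day 3 and in vivo. The in vivo value with IL-1β is above its own deposited upper bound, so that interval does not hold its own estimate. By FPKM, Mt1 was 6.10-fold higher with IL-1β at day 3 and 2.92-fold higher in vivo. On the log2 scale of (FPKM + 1) these are ratios of 2.47 and 1.52, and the extremes of the intervals would allow 0.72 to 4.31 and 0.15 to 2.70. By level, Mt1 ranked 6337 among the 23091 symbols at day 3 without IL-1β, 1550 with it, 1769 in vivo without and 464 in vivo with it.

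Mt2 (chromosome 8, 96696518 to 96697467) stood lower than Mt1 in all 4 later libraries. At day 3 it had 4.69 FPKM (0.992 to 7.94) without IL-1β and 13.6 (4.36 to 21.8) with it. In vivo it had 6.44 (1.25 to 11.2) without and 42.0 (14.6 to 45.0) with IL-1β. At 1 h it was at 5.28 (0 to 11.6) without and listed at 0 with IL-1β. The day 3 intervals of Mt2 overlapped and the in vivo intervals did not. Mt2 was 6.52-fold higher with IL-1β in vivo by FPKM, a log2 ratio of 2.53 (0.35 to 4.35 by the bounds). At day 3 the log2 ratio of Mt2 was 1.36 and was not counted. The order of the IL-1β ratios of the metallothioneins thus differed by stage, Mt1 having the larger at day 3 and Mt2 in vivo. That difference was not tested, and the bounds of the 4 ratios overlap. The ratio of Mt1 to Mt2 was 1.74 at day 3 without IL-1β, 3.64 with it, 6.27 in vivo without and 2.81 in vivo with it.

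Reads of Mt1 and Mt2 could in principle be mixed up, since the genes are related. In the GENCODE M21 transcripts the longest run of identical bases shared by Mt1 and Mt2 was 20 nt, and 0 other genes shared a 50 nt window with either. An annotated gene on the opposite strand, Gm45774, overlaps exons of Mt2. Whether counting used strand is not stated in the sources, so reads of these 2 genes cannot be told apart.

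**Figure D1:**
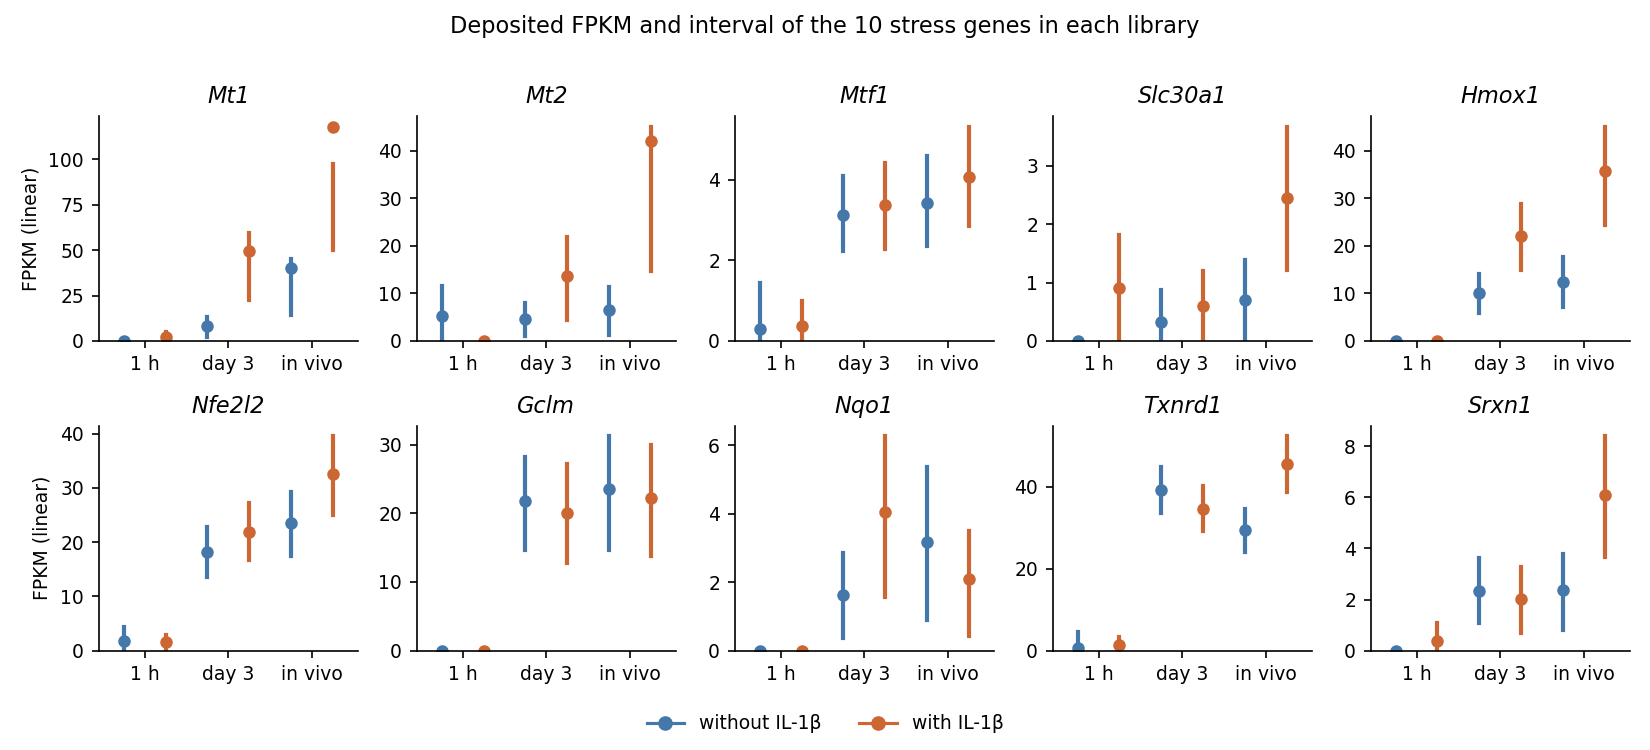
Deposited FPKM (linear vertical axis, own scale in each panel) of the 10 genes in the 6 libraries, 1 point per library, with the deposited interval as a bar, in blue without and in orange with IL-1β. Mt1, Mt2 and Hmox1 had their highest level in vivo with IL-1β (118, 42.0 and 35.7 FPKM), and the Mt1 point there lies above its own bar.

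Mtf1, the metal-sensing transcription factor (chromosome 4, 124479793 to 124527044), stayed below 5 FPKM in every library and was not compared. Its levels at day 3 were 3.12 FPKM (2.23 to 4.09) without and 3.38 (2.28 to 4.41) with IL-1β, and in vivo 3.43 (2.35 to 4.60) and 4.06 (2.84 to 5.32). At 1 h Mtf1 had 0.286 without and 0.368 with IL-1β, both with a lower bound of 0. All 4 later intervals of Mtf1 overlap one another. The log2 ratio with IL-1β was 0.09 at day 3, with bounds of -0.63 to 0.74, and 0.19 in vivo, with bounds of -0.54 to 0.92.

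Slc30a1, the zinc exporter of the plasma membrane (chromosome 1, 193730660 to 193737126), also stayed below 5 FPKM. At day 3 it had 0.329 FPKM (0 to 0.878) without and 0.603 (0 to 1.21) with IL-1β. In vivo it had 0.695 (0 to 1.39) without and 2.45 (1.22 to 3.67) with IL-1β, and at 1 h it was listed at 0 without and at 0.904 (0 to 1.81) with it. The level of Slc30a1 was highest in vivo with IL-1β, and its interval there lay just above that of day 3 with IL-1β and overlapped that of the in vivo library without IL-1β. The in vivo log2 ratio with IL-1β was 1.02 (-0.10 to 2.22). Mtf1 and Slc30a1 overlap genes on the opposite strand (1110065P20Rik and 1700034H15Rik).

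Hmox1, the inducible heme oxygenase (chromosome 8, 77617517 to 77624492), was listed at 0 in both 1 h libraries. At day 3 it stood at 10.0 FPKM (5.95 to 14.0) without and 22.0 (15.0 to 28.9) with IL-1β. In vivo it stood at 12.4 (7.05 to 17.6) without and 35.7 (24.5 to 45.1) with IL-1β. The intervals with and without IL-1β lay apart at both stages, while in each arm the day 3 and in vivo intervals overlapped. By FPKM, Hmox1 was 2.19-fold higher with IL-1β at day 3 and 2.88-fold higher in vivo. The log2 ratios were 1.06 (0.09 to 2.10) and 1.45 (0.45 to 2.52). At day 3, Hmox1 was just inside the 2-fold limit. Mt2 at day 3 (1.36) and Srxn1 in vivo (1.08) were past 2-fold and not counted, because their intervals overlapped. Set against Txnrd1, another gene of the oxidative stress response, Hmox1 had 0.256 of its FPKM at day 3 without IL-1β and 0.635 with it. In vivo these shares were 0.421 and 0.785.

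Nfe2l2, which encodes NRF2 (chromosome 2, 75513576 to 75542698), had 18.3 FPKM (13.6 to 22.8) at day 3 without IL-1β and 21.9 (16.7 to 27.3) with it. In vivo it had 23.6 (17.4 to 29.3) and 32.6 (24.9 to 39.5), and at 1 h 1.85 and 1.58. Within each stage the intervals of Nfe2l2 overlapped. Its log2 ratios with IL-1β were 0.25 at day 3 (-0.43 to 0.95) and 0.45 in vivo (-0.22 to 1.13), and it was not counted. NRF2 is controlled largely through the stability of its protein, which these data do not measure.

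The 4 NRF2 targets had unlike levels and ratios. Gclm, the modifier subunit of the enzyme that limits glutathione synthesis (chromosome 3, 121948510 to 121969566), had 21.8 FPKM at day 3 without and 20.1 with IL-1β, and 23.6 and 22.2 in vivo, and was listed at 0 at 1 h. Its intervals overlapped in all comparisons of the 4 later libraries, and its log2 ratios with IL-1β were -0.11 (-1.08 to 0.85) and -0.08 (-1.12 to 0.98). The day 3 ratio of Gclm turned to 0.28 when the length trend described below was removed. Gclm overlaps Gm17494 on the opposite strand and Gm6061 on the same strand.

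Txnrd1, the cytosolic thioredoxin reductase (chromosome 10, 82296696 to 82360469), was the most abundant of the 10 genes at day 3 without IL-1β, with 39.3 FPKM (33.7 to 45.0), against 34.7 (29.2 to 40.1) with IL-1β. In vivo it had 29.5 (24.2 to 34.7) without and 45.5 (38.9 to 52.3) with IL-1β, and at 1 h 0.678 and 1.41. The in vivo intervals of Txnrd1 lay apart, and its log2 ratio of 0.61 (0.16 to 1.08) was below the 2-fold limit. The day 3 ratio of -0.18 had overlapping intervals and became 0.00 with the length trend removed.

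Srxn1, which encodes sulfiredoxin, an enzyme that repairs oxidized peroxiredoxins (chromosome 2, 151931466 to 151937089), had 2.32 FPKM (1.07 to 3.63) at day 3 without and 2.04 (0.704 to 3.29) with IL-1β. In vivo it had 2.36 (0.807 to 3.77) without and 6.09 (3.67 to 8.38) with IL-1β. At 1 h Srxn1 was listed at 0 without and at 0.377 with IL-1β. It was thus highest in vivo with IL-1β, where its interval met that of the library without IL-1β in a narrow overlap.

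Nqo1, a quinone reductase (chromosome 8, 109912125 to 109927105), was listed at 0 at 1 h and stayed below 5 FPKM. It had 1.64 (0.356 to 2.84) at day 3 without and 4.04 (1.56 to 6.25) with IL-1β, and 3.16 (0.895 to 5.37) and 2.08 (0.436 to 3.49) in vivo. Its 4 intervals overlapped one another. The log2 ratio of Nqo1 was 0.93 at day 3 and -0.43 in vivo, and it was not compared.

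FPKM is scaled to length, which allows levels of different genes to be set side by side within a library. The length trend in the day 3 ratios, given below, shows that this scaling did not remove every effect of length, so the order of short genes such as Mt1 and Mt2 against longer ones is approximate. At day 3 without IL-1β the order of levels was Txnrd1, Gclm, Nfe2l2, Hmox1, Mt1, Mt2, Mtf1, Srxn1, Nqo1 and Slc30a1. Only the step from Txnrd1 to Gclm had intervals that lay apart. With IL-1β at day 3, Mt1 came first and the only clear step was from Txnrd1 to Hmox1. In vivo Mt1 was first in both libraries, with no clear step without IL-1β and 1 with it, from Gclm to Srxn1. The summed FPKM of the 10 genes was 109.6 and 172 at day 3 without and with IL-1β, and 146 and 311 in vivo.

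At day 3, 6 of the 10 genes reached 5 FPKM and were compared. Mt1 and Hmox1 were counted as higher and 0 as lower, and 4 of the 6 log2 ratios were above 0. Over all 7962 symbols compared, 1.29% were counted as higher and 2.15% as lower. Mt1 ranked 46 and Hmox1 176 from the highest ratio. In vivo, 7 were compared, Mt1, Mt2 and Hmox1 were counted as higher, and 0 as lower. There 6.23% of 8639 symbols were counted as higher and 3.48% as lower, and Mt2 ranked 112, Mt1 357 and Hmox1 392. As these genes were chosen on these comparisons, nothing is read from their count against the background. The median log2 ratio of the compared genes, which only describes those that reached 5 FPKM, was 0.66 at day 3 and 1.08 in vivo. Over all symbols compared it was -0.05 and 0.03. Nothing is read from the medians of the compared genes either, since the chosen genes enter them. The in vivo median was the ratio of Srxn1, which reached 5 FPKM only with IL-1β.

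At 1 h, only Mt2 could be compared, with its 5.28 FPKM without IL-1β, and it was not counted because its interval without IL-1β reached down to 0. Over all 933 symbols compared at 1 h, 7.72% were counted as higher and 0.214% as lower. Of the 10 genes, 6 were listed at 0 without and 4 with IL-1β. Hmox1, Gclm and Nqo1 were listed at 0 in both 1 h libraries. A value of 0 in these libraries is no sign of absence, since far fewer symbols reached 5 FPKM there (631 and 765, against 7313 to 8154 in the other 4 libraries).

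**Figure D2:**
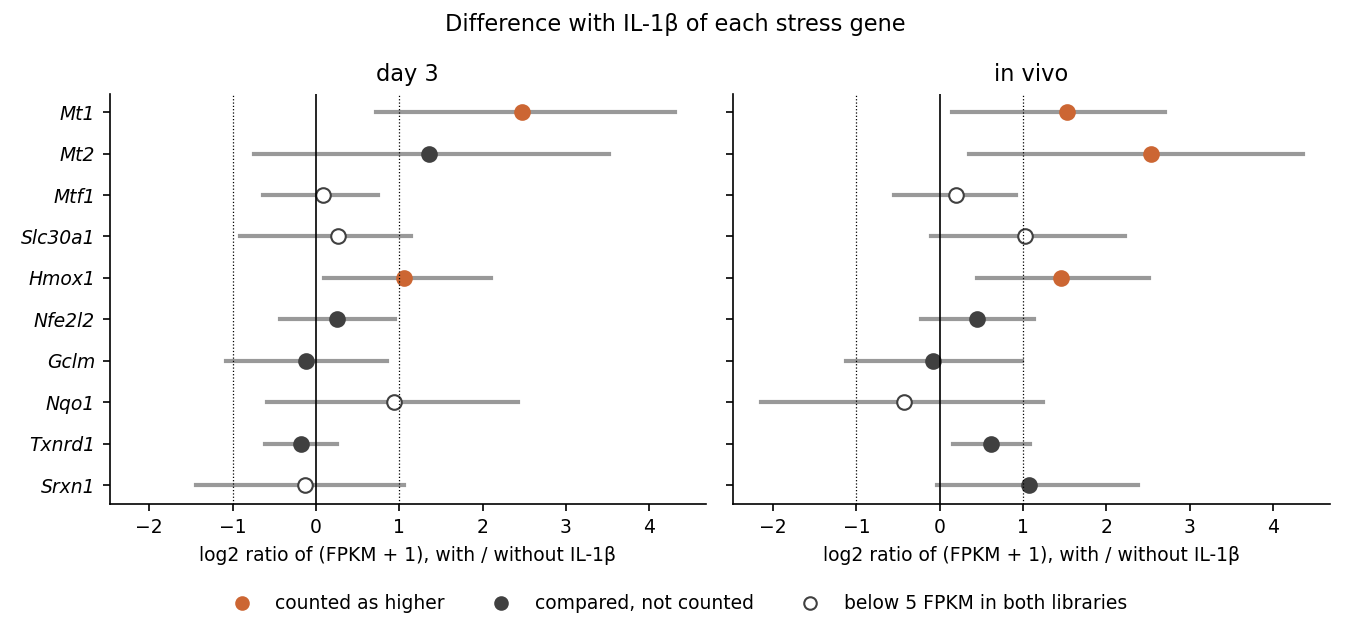
Log2 ratio of (FPKM + 1) with against without IL-1β (horizontal axis) for the 10 genes at day 3 and in vivo, 1 library on each side, with bars for the extremes that the deposited intervals allow and dotted lines at a 2-fold ratio. Orange points (Mt1 and Hmox1 at day 3, and Mt1, Mt2 and Hmox1 in vivo) were counted as higher, black points were compared and not counted, and open points were below 5 FPKM in both libraries.

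The comparison of in vivo with day 3 cells did not choose the genes, though it shares its libraries with the comparisons that did. Without IL-1β, Mt1 was higher in vivo, at 40.4 against 8.14 FPKM, a 4.96-fold difference and a log2 ratio of 2.18. The bounds allow 0.09 to 3.92, so the Mt1 intervals lay only narrowly apart. Mt1 was the 1 gene counted of the 6 compared, with 0 lower, where 2.13% of 8126 symbols were counted as higher and 0.665% as lower. Nothing is read from this count, since the choice of Mt1 used its low level at day 3 without IL-1β. Mt2 (log2 ratio 0.39), Hmox1 (0.28), Nfe2l2 (0.35), Gclm (0.11) and Txnrd1 (-0.40) had overlapping intervals. The Mt1 level in vivo without IL-1β was thus close to the day 3 level with IL-1β (49.7 FPKM), and those of Mt2 and Hmox1 were closer to day 3 without IL-1β.

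With IL-1β, Srxn1 was the 1 gene counted of the 7 compared. It was higher in vivo, at 6.09 against 2.04 FPKM, 2.99-fold by FPKM and a log2 ratio of 1.22 (0.12 to 2.46). In that comparison 12.0% of 8572 symbols were counted as higher and 5.87% as lower, so 1 of 7 is near the background. Mt1 (log2 ratio 1.23) and Mt2 (1.55) passed 2-fold with overlapping intervals. Hmox1 had a log2 ratio of 0.67, Nfe2l2 0.55, Txnrd1 0.38 and Gclm 0.14. The 7 compared ratios were above 0, as were 52.0% of those of all symbols compared. Nothing is read from this, since Mt1, Mt2 and Hmox1 were chosen as high in the in vivo library with IL-1β. Srxn1 reached 5 FPKM only in that library. Of the genes not compared, Nqo1 had a log2 ratio of -0.71, Mtf1 of 0.21 and Slc30a1 of 1.10. The ratio of Gclm turned to -0.23 when the length trend described below was removed.

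The in vivo libraries also held RNA of other cell types. T cell markers (8 of 9 found, such as Cd3e) summed to 1978 FPKM in vivo without and 1672 with IL-1β, against 2021 and 2270 at day 3, and 0 of 8 was counted in either IL-1β comparison. Myeloid markers (19 of 20 found) summed to 896 FPKM without and 2141 with IL-1β in vivo, 2.39-fold. Of 14 compared, 4 were counted as higher, and Marco was at 0 in both libraries. Lyz2 alone made up 521 and 1614 FPKM of these sums. S100a8 (107.2 and 106.8), S100a9 (116.7 and 116.2) and Ear2 (14.4 and 11.6) had slightly smaller values with IL-1β, and the other myeloid markers above 0 had larger ones. Lung epithelial markers (11 of 11 found) summed to 6683 and 17402 FPKM, 2.60-fold, with 9 of 10 compared counted as higher. Stroma and endothelium markers (10 of 10 found) summed to 66.6 and 197 FPKM, 2.96-fold, with 6 of 8 counted and Dcn at 0 without IL-1β. Erythroid markers (6 of 7 found) summed to 375 and 680 FPKM, with Hbb-b1 at 0 in both, mast cell and basophil markers (8 of 8 found) to 10.6 and 40.5 with Mcpt4 at 0 in both, and B cell markers (5 of 5 found) to 40.2 and 25.9. Macrophages and lung cells are known to express metallothioneins and heme oxygenase. The in vivo ratios by FPKM were 2.92 for Mt1, 2.88 for Hmox1 and 6.52 for Mt2. The marker sums had unlike ratios, from 0.644 for B cells and 1.81 for erythroid cells to 3.81 for mast cells and basophils. A gene's place among them therefore says little, and the part of these cells in the results was not tested.

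Between day 3 and in vivo without IL-1β, the myeloid sum was 35.3-fold and the lung epithelial sum 345-fold higher. Over the same step Mt1 was 4.96-fold higher, while Mt2 was at 1.37-fold and Hmox1 at 1.24-fold of its day 3 FPKM, both with overlapping intervals. At day 3 the sums of other cell types were small. Myeloid markers summed to 25.3 FPKM without and 44.1 with IL-1β, with 9 and 8 of the 19 found at 0, among them Csf1r, Cd14, Marco, Mrc1, Mpeg1, C1qa and C1qb in both libraries, and 0 of 3 compared was counted. Lung epithelial markers summed to 19.4 and 19.1 FPKM, with Sftpd, Krt8 and Cldn18 at 0 in both. Stroma and endothelium markers summed to 17.8 and 14.6 FPKM, with Col1a2, Col3a1, Dcn, Kdr, Vwf and Cldn5 at 0 in both. Mast cell and basophil markers summed to 4.47 and 14.0 FPKM, with Mcpt4 at 0 in both and Mcpt8 counted as higher. B cell markers summed to 21.2 and 22.0 FPKM and erythroid markers to 3.03 and 4.65, with Hba-a2 and Hbb-b1 among those at 0 in both. The myeloid sum at day 3 with IL-1β was 1.74-fold that without. Most of the myeloid markers above 0 there had larger values with IL-1β, though none was counted. Among them were Fcer1g at 13.2 against 7.28 FPKM, Chi3l3 at 7.25 against 3.72 and Lyz2 at 4.25 against a listed 0. Fcgr3, at 1.05 against 1.92 FPKM, and Itgam, at 0.271 against 0.370, had smaller values with IL-1β. The day 3 FPKM of Mt1 was 6.10-fold and that of Hmox1 2.19-fold higher with IL-1β. The part of these markers' cells in the day 3 differences was not tested.

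**Figure D3:**
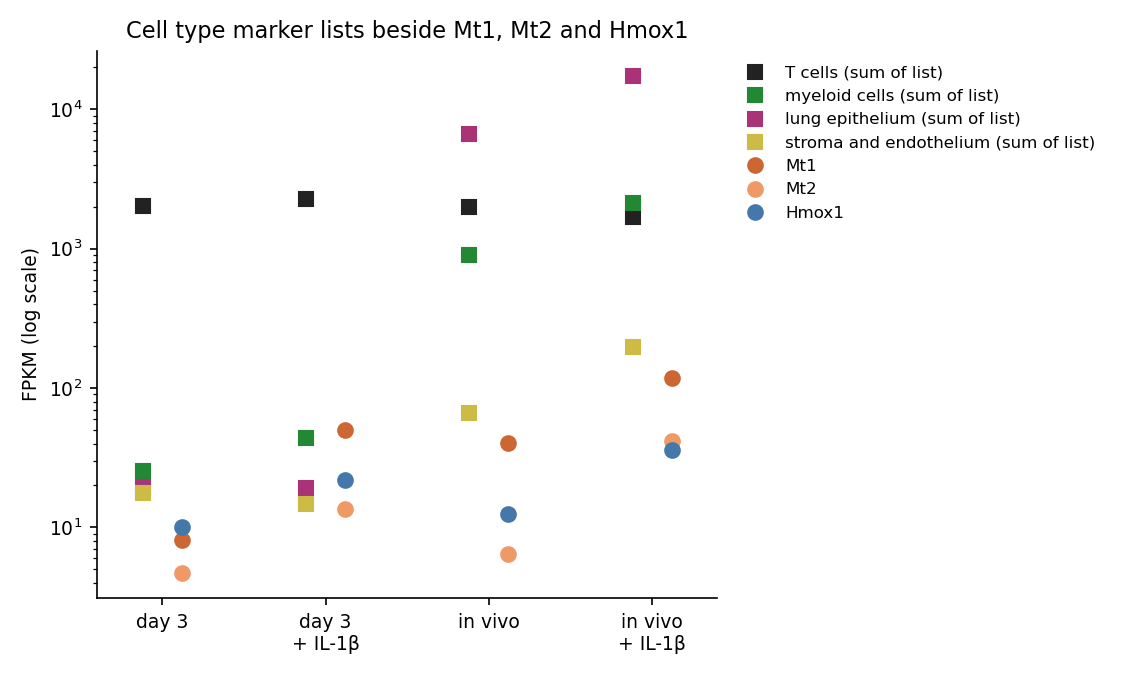
FPKM (log vertical axis) of Mt1, Mt2 and Hmox1 (circles) and summed FPKM of 4 cell type marker lists (squares) in the 4 poly(A)-selected libraries. From day 3 to in vivo the myeloid and lung epithelial sums were higher by more than an order of magnitude (25.3 to 896 and 19.4 to 6683 FPKM without IL-1β), Hmox1 stood at 10.0 and 12.4 FPKM over that step, and the T cell sum stayed between 1672 and 2270 FPKM.

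At day 3 the IL-1β ratio also moved with transcript length, and metallothionein transcripts are short. Of 5 groups of genes ordered by length, the shortest had a median log2 ratio of 0.37 and the longest of -0.44. Among the 473 genes with transcripts of up to 1000 nt the median was 0.49. In vivo the shortest and longest groups had medians of 0.01 and 0.03. With the trend subtracted, the day 3 log2 ratio of Mt1 (longest transcript 1085 nt) was 2.09, that of Mt2 (511 nt) 0.80 and that of Hmox1 (1569 nt) 0.82. Calls with the length trend removed were made on FPKM scaled by the trend, which gave slightly different ratios, such as 0.83 for Hmox1. Mt1 kept its call there and Hmox1 lost it, with the ratio below 2-fold. In vivo, the corrected ratios were 1.51 for Mt1, 2.62 for Mt2 and 1.43 for Hmox1, and all 3 kept their call. In the IL-1β arm the step from day 3 to in vivo carried the reverse trend, with medians of -0.44 in the shortest and 0.49 in the longest group. There the corrected ratios were 1.72 for Mt1, 2.31 for Mt2 and 1.24 for Srxn1, and 3 genes were counted as higher instead of 1.

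**Figure D4:**
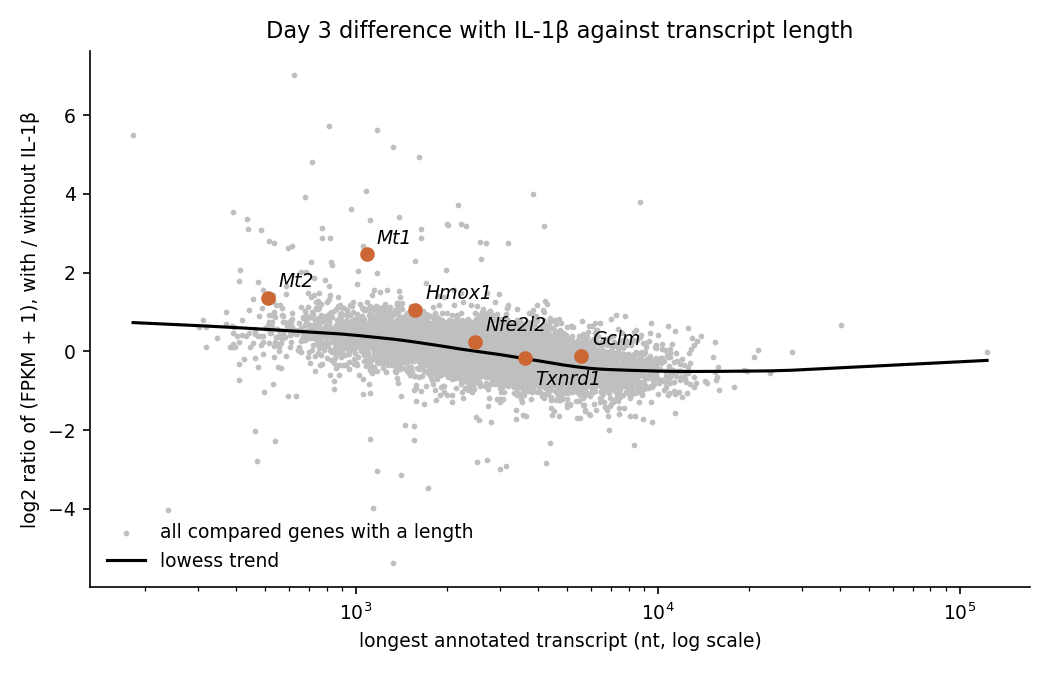
Day 3 log2 ratio of (FPKM + 1) with against without IL-1β (vertical axis) against the longest annotated transcript in nt (log horizontal axis), with 1 grey point per compared gene, a black lowess trend and the 6 compared stress genes in orange. Mt1 lies 2.09 above the trend at its length, Hmox1 0.82 and Mt2 0.80, and Txnrd1 lies on it.

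Of the genes around the 10 in the same pathways, from 4 lists that hold none of them, 62 were compared at day 3 and 66 in vivo. With IL-1β, 1 was counted as higher and 0 as lower at day 3, and 3 as higher and 0 as lower in vivo, shares near the background or below it (1.29% and 2.15% of all symbols at day 3, 6.23% and 3.48% in vivo). Of the other metallothioneins and zinc transporters (21 found), 15 were compared at day 3 with 0 counted and a median log2 ratio of -0.06, and 16 in vivo with 1 counted and a median of 0.03. The 1 was Slc30a4, a zinc carrier of endosomal membranes, at 5.70 FPKM with and 2.12 without IL-1β in vivo. Mt3 and Mt4, the metallothioneins known from brain and squamous epithelium, were listed at 0 in all libraries except for Mt3 at 1.65 FPKM (0 to 3.08) at day 3 without IL-1β. The zinc importers with the highest levels were each within 2-fold: Slc39a7 had 51.8 FPKM with and 50.1 without IL-1β at day 3, and Slc39a1 34.8 and 29.6. In vivo, Slc39a6 had 14.3 and 18.5 FPKM, and Slc39a4 24.7 and 15.7.

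Of the genes of heme and iron handling (14 of 15 found), 12 were compared at each stage and 0 was counted, with medians of 0.07 at day 3 and -0.10 in vivo. Hmox2, the constitutive heme oxygenase, had 69.9 FPKM with and 60.9 without IL-1β at day 3, and 48.6 and 57.3 in vivo. The ferritin genes were the most abundant, Ftl1 with 966 and 694 FPKM at day 3 and Fth1 with 884 and 640. Their in vivo values were 722 and 645 for Ftl1 and 1057 and 745 for Fth1. All these ferritin values lie above their own deposited upper bounds. The intervals of both genes at day 3, and of Fth1 in vivo, lay apart with ratios below 2-fold. The transferrin receptor Tfrc had 52.6 and 70.3 FPKM at day 3 and 31.5 and 41.9 in vivo. Bach1, the heme-sensing repressor of Hmox1, stayed below 5 FPKM, at 1.39 with and 2.73 without IL-1β at day 3 and 4.58 and 2.35 in vivo.

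Among 9 regulators of NRF2, all compared at both stages, 1 was counted at day 3 and 0 in vivo. Maff, a small MAF partner of NRF2, was higher with IL-1β at day 3, at 7.96 FPKM (4.72 to 11.1), than without it, at 2.42 (0.920 to 3.99), and its log2 ratio was 1.39. In vivo Maff had 9.17 and 5.32 FPKM with overlapping intervals. Keap1, the sensor that retains NRF2, had 27.5 FPKM with and 29.1 without IL-1β at day 3 and 25.2 and 27.7 in vivo. Its ubiquitin ligase partner Cul3 had 31.7 and 38.1, then 35.3 and 32.7, and the related factor Nfe2l1 had 22.3 and 27.6, then 31.1 and 28.3. The autophagy receptor Sqstm1 had 75.1 and 66.0 FPKM at day 3 and 116 and 59.8 in vivo, just under the 2-fold limit with a log2 ratio of 0.95. The median of the 9 was -0.15 at day 3 and 0.38 in vivo.

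A further list of 32 genes held antioxidant and NRF2 target genes together with Txnip, which is neither. Of this list, 26 were compared at day 3 and 0 was counted, with 19 ratios above 0 and a median of 0.19. Over all symbols compared at day 3, 46.7% of ratios were above 0 and the median was -0.05. The day 3 length trend given above was not removed from the ratios of this list, and its part in them was not tested. In vivo 29 were compared and 2 were counted as higher, with a median of 0.05. Gclc, the catalytic subunit that pairs with Gclm, was at 32.4 FPKM with and 15.2 without IL-1β in vivo, a log2 ratio of 1.04. Txnip, the thioredoxin inhibitor, was at 132 and 57.6 FPKM, a log2 ratio of 1.18. Gclc and Gclm thus differed in vivo in whether they met the 2-fold rule, and that difference was not tested. The most abundant genes of the list were within 2-fold at both stages: Txn1 (599.7 and 365 FPKM at day 3, 284 and 295 in vivo), Sod1 (433 and 318, then 258 and 257), Tkt (141 and 174, then 103 and 164) and Taldo1 (164 and 149, then 119 and 141). The values of Txn1 and Sod1 at both stages lie above their own deposited upper bounds. At 1 h, 12 genes of the 4 lists were compared and 0 was counted.

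Over the step from day 3 to in vivo without IL-1β, 64 genes of the 4 lists were compared. Of these, 1 was higher and 0 lower, near the 2.13% and 0.665% of all symbols. The 1 was Gstm1, a glutathione transferase, at 21.6 against 3.04 FPKM. With IL-1β, 7 of 65 compared were higher and 4 lower, close to the 12.0% and 5.87% of all symbols. Gstm1, Gsta4, Osgin1, Txnip, Gclc, Mafk and Slc39a9 were higher in vivo, and Prdx2, Txn1, Txnrd2 and Rbx1 were lower. Both steps carry the marker changes given above, and the step with IL-1β also the length trend.

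**Figure D5:**
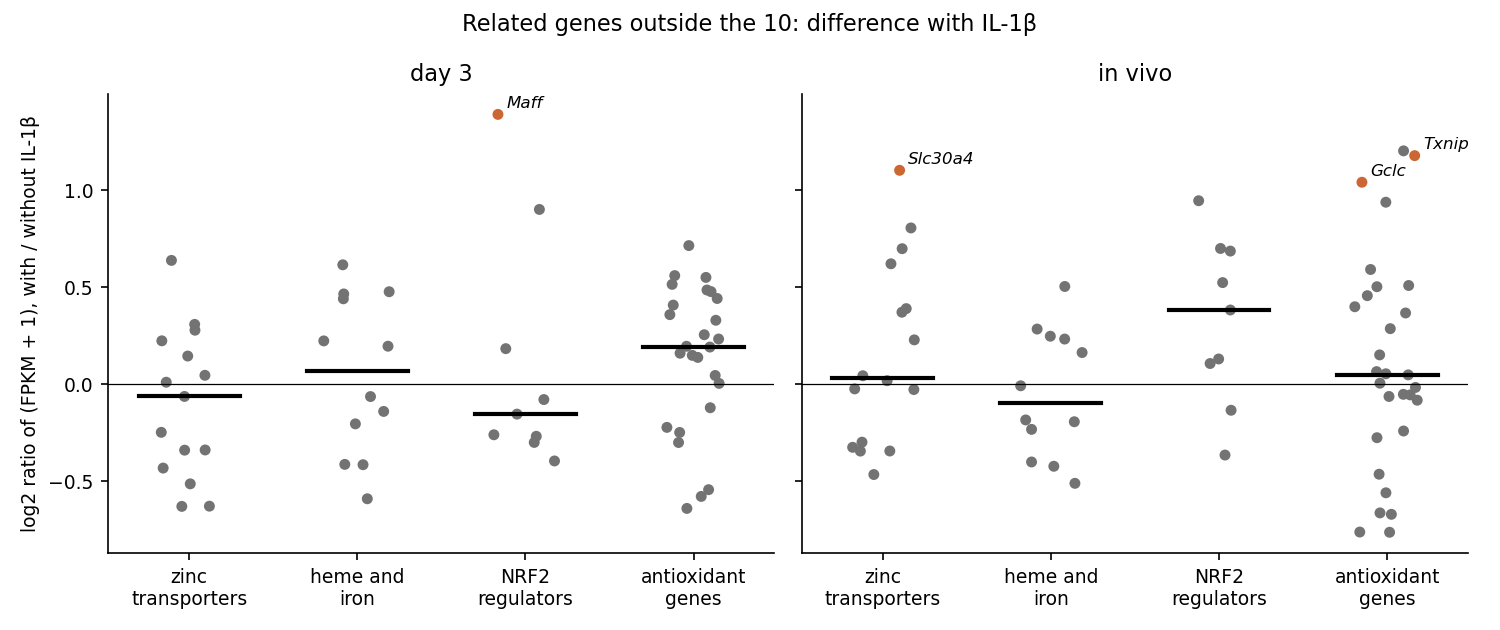
Log2 ratio of (FPKM + 1) with against without IL-1β (vertical axis) for compared genes of 4 related lists that hold none of the 10, at day 3 and in vivo, with a black bar at each list's median. Orange points are the 4 counted genes (Maff at day 3, and Slc30a4, Gclc and Txnip in vivo), and list medians lie between -0.15 and 0.38.

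The genes with a pattern most like Mt1 and Hmox1 were found by the root mean square distance of log2(FPKM + 1). Values were centred on each gene's mean over the 4 poly(A)-selected libraries. The search covered 8313 named genes with 5 FPKM or more in at least 1 of these libraries. Only 4 points enter each distance and they are the same libraries. For Mt1 the nearest was Nupr1, a small stress-induced nuclear protein, at a distance of 0.165. Nupr1 had 3.92 FPKM at day 3 without and 22.8 with IL-1β, and 23.0 and 50.4 in vivo. The next were Pf4 (0.356), Srrd (0.370), Rab2b (0.421) and Npdc1 (0.427), the last 3 listed at 0 at day 3 without IL-1β. Npdc1 reached 5 FPKM only in vivo with IL-1β, where Mt1 was highest too. Mt2 came at place 30 (0.644) and Hmox1 at place 84 (0.792).

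For Hmox1 the nearest was Cxcr6, a chemokine receptor of effector T cells, at a distance of 0.0715, with 1.63 and 4.30 FPKM at day 3 and 2.51 and 8.24 in vivo without and with IL-1β. Rsl1 (0.0808), H2-T24 (0.105), Tgif1 (0.147) and Tnfrsf26 (0.150) followed. Cxcr6, Rsl1 and H2-T24 reached 5 FPKM only in vivo with IL-1β, where Hmox1 was highest too. Nothing is read from their closeness, since that library let them into the search. Tgif1, a transcriptional repressor, had 8.89 and 15.9 FPKM at day 3 and 9.67 and 24.0 in vivo. Of the 10 genes, the nearest to Hmox1 were Srxn1 at place 341, Nfe2l2 at 376 and Mt2 at 410.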

How the data were processed

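RNA-seq libraries (MiSeq) of 6 groups, 1 library each, were used; groups come from the labels. TopHat, without a version, and the build mm9 are named in the submitters' processing notes. The authors deposited FPKM per gene with lower and upper bounds, per the file headers; the sources used here name neither the quantifying tool nor the strand setting. Of 23700 entries per file, 285 were not marked OK and were dropped, and entries sharing a symbol were summed. Between 19 and 319 entries per file exceeded their own upper bound. Gene starts are counted from 0 in the files (end minus start equalled the RefSeq length for 8686 of 20468 symbols, against 527 for the other reading), and 1 was added.

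Log2 ratios used a pseudocount of 1. A gene was counted at 2-fold or more, with 5 FPKM or more in the higher library and intervals that did not overlap. This rule was tested on simulated data. The noise there followed the deposited interval widths only, so variation between cultures or libraries was not covered. Transcript lengths are the longest protein-coding transcripts of GENCODE M21, matched by symbol, with a lowess fraction of 0.3. Promoters are RefSeq windows. Python 3.11.15, numpy 2.4.6, pandas 2.3.3, statsmodels 0.14.6 and matplotlib 3.10.9 were used. The members, lists and rules were chosen with earlier results of these data known. Named outside the 10 are list genes counted in an IL-1β comparison, the 4 most abundant of each list and the 5 nearest patterns to Mt1 and Hmox1. Mt3, Mt4, Bach1 and list genes counted over transfer were named after their values were seen. Alternatives were pseudocounts of 0.1 and 5, no minimum, other scalings, removal of the length trend and the largest entry per symbol. Protein sequences were not analysed here. Results of 1 listed gene are not reported here.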

Additional observations from a re-analysis of the deposited data

Results flagged for a closer look

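For 3 of the 10 genes the log2 ratio with IL-1β had opposite signs at day 3 and in vivo, which marked them for a second look. With 1 library per group, these differences between the stages were not tested. Nqo1 stood at 0.93 at day 3 and -0.43 in vivo, at levels below 5 FPKM. Txnrd1 stood at -0.18 at day 3 and 0.61 in vivo, with intervals that lay apart in vivo, and its day 3 ratio was 0.00 with the length trend removed. Srxn1 stood at -0.13 at day 3 and 1.08 in vivo, with intervals that overlapped at both stages.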

How the results depend on the processing

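At day 3, 2 of the 10 genes were counted with IL-1β. The count was 1 (Mt1) with a pseudocount of 5 and 1 (Mt1) with the length trend removed, where Hmox1 had log2 ratios of 0.85 and 0.83. In the comparison of in vivo with day 3 with IL-1β, 1 gene was counted. It was 0 with a pseudocount of 5, 2 with no minimum (Slc30a1 and Srxn1) and 3 with the length trend removed (Mt1, Mt2 and Srxn1). In vivo, Mt1, Mt2 and Hmox1 were counted with IL-1β under every alternative, and with equal upper quartiles Srxn1 joined them, for a count of 4. Without IL-1β, Mt1 alone was counted over transfer under every alternative. Setting values above their own upper bound to that bound was chosen after seeing the data, and it left Mt1 in vivo at a log2 ratio of 1.25. Of the alternative values of single genes, 4 became counted, 3 were no longer counted, and 4 left the range that the deposited bounds allow. The last 4 were all at 1 h with a pseudocount of 0.1, and none of them was counted. The other 419 did none of these. The cause of the other changes was not tested, beyond what the setting itself does.

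The background counts moved as well. At 1 h, 72 symbols were higher, and 385 with no minimum, 40 with the median ratio set to 0, 124 with equal upper quartiles and 43 with the length trend removed; 2 were lower, and 6 and 4 with no minimum and with the trend removed. At day 3, 171 were lower, and 40 with a pseudocount of 5, 263 with no minimum and 81 with the trend removed. In vivo, 538 were higher and 301 lower, against 326 and 165 with a pseudocount of 5, and 829 were higher with no minimum. Over transfer with IL-1β, 1032 were higher, and 621 with a pseudocount of 5 and 1719 with no minimum, and 503 were lower, and 275 with equal upper quartiles. Without IL-1β, 173 were higher, and 391 with no minimum, and 54 were lower, and 29 with a pseudocount of 5 and 87 with no minimum. Scaling moved the median of all genes by over 0.1 on the log2 scale at 1 h (-0.21 and 0.24) and over transfer (0.15 without and 0.21 and 0.10 with IL-1β).

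No paired analysis was possible because each comparison sets 1 library against 1 library, which share a single replicate number. A fit of IL-1β over the 3 stages, with stage as a term, was not run here, since Mt1, Mt2 and Hmox1 were chosen on 2 of these stages. Depth is unknown, and at 1 h 9 of the 10 genes were below 5 FPKM in both libraries and were not compared.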
